A study of Mus musculus with 141 samples.

Results

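The genes of blood coagulation and fibrinolysis were followed across liver, lung and kidney of the Collaborative Cross (CC), a panel of recombinant inbred mouse strains bred from a shared set of founders. The group was set by gene symbol and held 36 of the 24423 genes in each file. Of these, 24 encode factors that hepatocytes are known to make, 6 are known from endothelium, and 6 come from other or mixed sources.

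Blood clots when tissue factor, kept away from plasma, meets factor VII and starts a chain of protease activations that ends with thrombin cutting fibrinogen into fibrin. Antithrombin, the protein C pathway and tissue factor pathway inhibitor hold this chain back, and plasmin, made from plasminogen by tissue-type and urokinase-type activators, dissolves the clot. The liver secretes most of the circulating proteases, cofactors and inhibitors, whereas endothelium displays receptors that keep its own surface from clotting and stores von Willebrand factor.

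RNA-seq of whole liver, lung and kidney was analysed for 47 CC strains, with 1 male mouse aged 8 to 12 weeks per strain and 1 library per tissue, giving 3 groups of 47 libraries. All mice ate an NTP 2000 diet and spent 6 hours a day, Monday to Friday, in chambers with clear air over 2 weeks, so no group was left without that handling. With 1 mouse per strain, a strain and an individual mouse cannot be told apart, and p-values across strains measure the spread among these mice. Total counts ran from 1738046 to 42158454 in liver, from 2829104 to 17585682 in lung and from 3046695 to 15028553 in kidney. Levels are given as CPM, read counts relative to a library size adjusted by TMM. The TMM factor had a median of 1.94 for lung libraries, 1.32 for kidney libraries and 0.643 for liver libraries. A level of 3 counts, at or under which a value was taken as unresolved, equalled 0.288 CPM in liver, 0.321 in lung and 0.364 in kidney at the median depth before that adjustment, and this floor covers counting error only.

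The tissue labels were checked with marker lists. The summed CPM of 8 hepatocyte markers lay between 72414 and 192173 in liver, that of 6 alveolar epithelium markers between 2680 and 6009 in lung, and that of 6 proximal tubule markers between 12521 and 39828 in kidney. Hepatocyte markers summed to a median of 49.4 CPM in lung (range 1.94 to 794, highest in CC010) and 65.3 CPM in kidney (range 8.96 to 1145, highest in CC027). Strain labels were checked by correlating libraries of different tissues over the 300 genes that varied most alike between them. The liver library labelled CC032 (r = 0.286 with its lung and 0.187 with its kidney) and the lung library labelled CC042 (r = 0.0083 with its liver and 0.0491 with its kidney) matched other strains better than their own, whereas the median r within a strain was 0.750 to 0.803. That choice of genes in the same libraries raises r within a strain. Over 8042 genes the median r within a mouse was 0.247 to 0.260. Counts of members called were repeated without the strains CC032 and CC042. Both stay in the counts of mice, the ratios to the liver of the same mouse and the r between tissues given below. Some of those pairs may therefore join different mice. In bulk tissue, fewer cells of a type and less RNA per cell cannot be told apart.

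Levels between genes are given as TPM, which scales counts by transcript length. The authors counted only uniquely aligned reads, and 13 of the 36 members have more than 1 transcript in the files. Among hepatocyte-made members, liver medians ran from 56.4 to 6732 TPM for the 15 with 1 transcript and from 0.83 to 795 TPM for the 9 with more than 1. The order of levels between genes therefore carries this limit. Its part in the low values of *F10*, *Proc*, *F9*, *Serpind1*, *F8*, *Tfpi*, *F13a1* and *Adamts13* was not tested. *Kng1* and *Kng2* are also near copies: 16.1% of the 50-base windows of *Kng1* transcripts and 19.3% of those of *Kng2* occur in the other gene. *Klkb1* shares 9% of its windows with *Cyp4v3*, which limits its lung and kidney values and its ratios in those tissues.

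Hepatocyte-made members were mostly higher in liver, and endothelial and other members mostly in lung or kidney, with exceptions in both directions. With limma-voom over 12127 genes (adjusted p, q ≤ 0.1, and a change of 1 or more on the log2 scale), 32 members were tested, while *F10*, *Proc*, *F13a1* and *Adamts13* fell under the filter on low counts. Between liver and lung, 22 members were higher in liver and 8 in lung, against 23.9% and 31% of all genes. Between liver and kidney, 24 were higher in liver and 5 in kidney, against 15.6% and 20.8% of all genes. Between lung and kidney, 9 were higher in lung and 13 in kidney, against 25.5% and 20.6% of all genes. Without the strains CC032 and CC042 the last of these counts was 12, as *Kng1* missed the fold threshold (-0.95), and no other count changed. The q of a called member was at most 5.05e-17, 1.57e-14 and 5.56e-07 in these comparisons. All libraries of liver lay above all of lung for 20 of the 22 tested hepatocyte-made members, where 14% of all genes did so, and above all of kidney for 20, where 6.28% did. All lungs lay above all livers for *Vwf*, *Thbd*, *Plat*, *F3* and *F2r* (12.1% of all genes), and all kidneys above all livers for *Plat* and *Plau* (6.92%). All lungs lay above all kidneys for *F7*, *Pros1*, *Vwf*, *Thbd* and *Plaur* (10.1%), and all kidneys above all lungs for *F13b*, *Serpinf2* and *Plau* (12.5%). The median log2 difference of the 32 members was 7.59 for liver against lung, 5.91 for liver against kidney and -0.49 for lung against kidney, beside -0.06, -0.0034 and 0.04 over all genes. Scaling by total counts in place of TMM (trimmed mean of M-values) moved the median of all genes by -1.37, -0.95 and 0.42, so differences of that size depend on the scaling. With it the split of calls over all genes went from 2901 and 3763 to 1186 and 7474 for liver and lung, from 1891 and 2521 to 981 and 5795 for liver and kidney, and from 3089 and 2502 to 4046 and 1831 for lung and kidney. The members split 22 and 10, 20 and 6, and 9 and 9 on total counts, and 21 and 10, 19 and 6, and 9 and 7 on log2(TPM + 1). In 12, 7 and 12 members of the 3 comparisons the lower tissue had a median of 3 counts or fewer, and the size of those fold changes rests on the small value added before taking logs. Without them the medians of the remaining members were 5.17, 2.15 and -0.25.

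**Figure D1:**
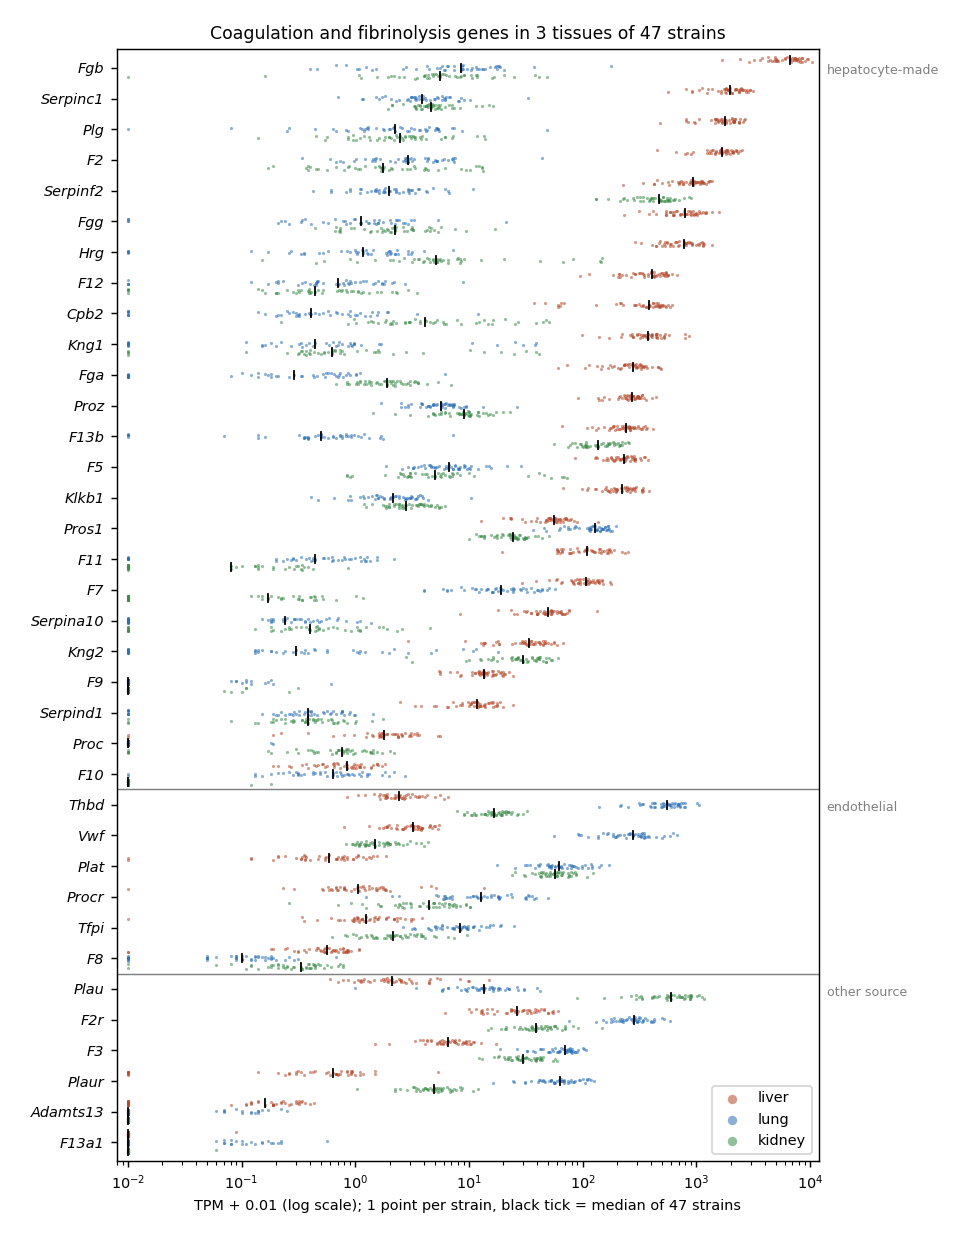
TPM plus 0.01 (log axis) of the 36 members in liver, lung and kidney, 1 point for each of 47 strains, with a black tick at the median of each tissue. Liver points of *Fgb* lie around 6732 TPM, *Thbd* and *Vwf* are highest in lung, *Plau* is highest in kidney, and *F13b* and *Serpinf2* show liver and kidney close together.

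Fibrinogen, the substrate of the clot, is built from chains encoded by *Fga*, *Fgb* and *Fgg*. *Fgb* ran from 1697 to 14672 TPM in the 47 livers with a median of 6732, from 0.39 to 178 TPM in lung (median 8.51) and from 0 to 48.6 TPM in kidney (median 5.51). *Fgg* had a liver median of 795 TPM (232.5 to 1589) and *Fga* of 275 TPM (60.1 to 492), both with 2 transcripts in the files. Liver and the other tissues did not overlap for any of the 3 chains. The log2 difference between liver and lung was 11.24 ± 0.16 (SE, n = 47 mice) for *Fgb*, 11.11 ± 0.12 for *Fga* and 10.89 ± 0.12 for *Fgg*. Against kidney *Fgb* differed by as much, 11.04 ± 0.16, but *Fgg* by 9.33 ± 0.10 and *Fga* by 7.94 ± 0.09. Kidney held more *Fga* than lung in 46 of 47 mice (log2 difference of lung against kidney -3.17 ± 0.11) and more *Fgg* in 40 of 47. *Fga* had a median of 3 counts in lung, so the size of its differences from lung rests on the small value added before logs.

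The fibrinogen genes lie together on chromosome 3 of NCBIM37, the build of the files, as chr3:82811781-82818975 (*Fgg*), chr3:82830075-82838036 (*Fga*) and chr3:82846169-82853725 (*Fgb*, minus strand), with 11.1 and 8.1 kb between neighbours. Their promoters, 250 bases before to 50 after the start, are shown because the 3 genes varied together across livers. They come from RefSeq on GRCm38.p6, at chr3:83025903-83026202 (plus strand) for *Fga*, chr3:83049814-83050113 (minus strand) for *Fgb* and chr3:83007474-83007773 (plus strand) for *Fgg*. Capitals mark the letters GTTAAT, a half-site of the hepatocyte factor HNF1, or TTGCNNAA, a form of the C/EBP site, on either strand.
Fga: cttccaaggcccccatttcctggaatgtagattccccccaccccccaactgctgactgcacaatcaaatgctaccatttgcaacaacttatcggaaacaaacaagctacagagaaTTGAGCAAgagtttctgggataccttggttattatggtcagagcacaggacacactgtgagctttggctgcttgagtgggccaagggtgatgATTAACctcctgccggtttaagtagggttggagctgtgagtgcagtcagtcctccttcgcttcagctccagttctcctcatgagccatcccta
Fgb: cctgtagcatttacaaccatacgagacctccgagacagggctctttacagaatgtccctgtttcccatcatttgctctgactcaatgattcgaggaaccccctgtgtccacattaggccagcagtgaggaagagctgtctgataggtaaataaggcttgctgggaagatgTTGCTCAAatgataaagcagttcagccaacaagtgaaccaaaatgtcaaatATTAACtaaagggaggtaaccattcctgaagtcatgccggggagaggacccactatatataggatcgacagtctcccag
Fgg: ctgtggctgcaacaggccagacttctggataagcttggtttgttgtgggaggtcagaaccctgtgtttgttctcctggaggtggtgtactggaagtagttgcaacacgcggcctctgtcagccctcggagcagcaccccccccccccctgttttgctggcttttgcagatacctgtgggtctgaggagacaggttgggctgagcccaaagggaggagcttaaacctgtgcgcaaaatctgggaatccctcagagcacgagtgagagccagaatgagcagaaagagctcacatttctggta
*Fga* and *Fgb* each held both motifs within this window, and *Fgg* held neither as spelled. Promoters were found for 28 of the 36 members (30 promoters), and not for *Plg*, *Proc*, *Serpina10*, *Kng1*, *Vwf*, *Thbd*, *Plat* and *Plau*. GTTAAT was found in 5 of the 20 promoters of hepatocyte-made members (*F13b*, *F2*, *Fga*, *Fgb* and *Proz*), in 0 of the 10 other member promoters and in 7.1% of all 32851 promoters. TTGCNNAA was found in 9 of the 20, in 2 of the 10 and in 10.8% of all promoters. The 2 motifs were chosen after the promoters had been seen, and a match is a description of the letters.

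Among the proteases of the cascade, *F2*, which encodes prothrombin, was the most abundant, with 449 to 2523 TPM in liver (median 1694) and medians of 2.88 TPM in lung and 1.73 TPM in kidney. Its log2 difference was 10.51 ± 0.13 against lung and 10.50 ± 0.13 against kidney. *F12*, which starts contact activation, and *F11*, its substrate, had liver medians of 408 and 109 TPM and stood at medians of 3 counts or fewer in lung and kidney. *Klkb1*, the plasma prekallikrein that *F12* activates, had a liver median of 222 TPM (66.8 to 386) and was lower by 8.15 ± 0.07 in lung and 7.09 ± 0.07 in kidney on the log2 scale. *F9*, the X-linked protease deficient in haemophilia B, had 5.48 to 24.2 TPM in liver and no more than 3 counts in any lung or kidney library. *F10*, which makes thrombin as part of prothrombinase, had a median of only 0.83 TPM in liver and 0.62 TPM in lung, and 45 of 47 kidneys listed it at 0. *F5*, the cofactor of *F10*, ran from 85.8 to 377 TPM in liver (median 229), from 1.85 to 28.5 TPM in lung (median 6.71) and from 0.83 to 72.1 TPM in kidney (median 5.04). Lung and kidney did not pass the threshold against each other for *F5* (log2 difference -0.53 ± 0.21, q = 0.0132 by limma-voom, and 0.10 on total counts), although the kidney values reached far higher in some strains.

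*F7*, the protease that tissue factor binds, had the largest excess of lung over kidney among the 22 tested hepatocyte-made members. It had 29.2 to 178 TPM in liver (median 107), 4 to 57.1 TPM in lung (median 19.1) and 0 to 1.16 TPM in kidney (median 0.16), where 41 of 47 libraries had 3 counts or fewer. The liver and lung ranges of CPM did not overlap, and liver was higher by 3.82 ± 0.08 on the log2 scale. Lung was higher than kidney in 47 of 47 mice (log2 difference 5.76 ± 0.12). Its neighbours *F10* and *Proz* lie 1.5 and 25.1 kb away on chromosome 8. *F10* had the same order of tissues as *F7* at low counts, with medians of 7 in liver, 4 in lung and 0 in kidney, and lung was higher than kidney in 45 of 47 mice. *Proz*, which encodes protein Z, a cofactor that helps to inhibit factor Xa, had medians of 270 TPM in liver, 5.69 in lung and 9.11 in kidney, and was higher in kidney than in lung (log2 difference -1.19 ± 0.08, -0.73 on total counts). *Pros1* encodes protein S, the cofactor of activated protein C. In TPM, which holds no TMM factor, its medians were 128 in lung (36.5 to 197), 56.4 in liver (12.8 to 137) and 24.4 in kidney (9.99 to 50.2). On TMM-scaled counts liver and lung differed by 0.33 ± 0.06 in favour of liver (36 of 47 mice), and on total counts and log2(TPM + 1) the sign turned to -1.05 and -1.15, so no direction is given. *Pros1* was higher in lung than in kidney in 47 of 47 mice, by 1.82 ± 0.06.

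For 3 hepatocyte-made members kidney stood far above lung. *F13b*, which encodes the carrier subunit of the fibrin crosslinking factor XIII, had 65.4 to 412 TPM in liver (median 239) and 55.8 to 258 TPM in kidney (median 137), against 0 to 7.27 TPM in lung (median 0.49). *Serpinf2*, which encodes the plasmin inhibitor alpha-2-antiplasmin, had 228 to 1365 TPM in liver (median 928), 131 to 904 TPM in kidney (median 471) and 0.41 to 10.9 TPM in lung (median 1.98). *Kng2*, a kininogen gene, had medians of 33.8 TPM in liver and 29.6 TPM in kidney, and 0 to 18 TPM in lung (median 0.29), where 33 of 47 libraries had 3 counts or fewer. Kidney exceeded lung in 47 of 47 mice for each, by 8.44 ± 0.11, 8.10 ± 0.11 and 5.93 ± 0.17 on the log2 scale. Median lung counts were 3 for *F13b* and 1 for *Kng2*, so the size of their differences from lung rests on the small value added before logs. On TMM-scaled counts, liver exceeded kidney in 47 of 47 mice by 1.68 ± 0.06 for *F13b*, 1.95 ± 0.08 for *Serpinf2* and 1.04 ± 0.11 for *Kng2*, and the count of mice was not repeated under other scalings. These smaller differences depended on the scaling: on total counts they were 0.75, 1.02 and 0.14, and on log2(TPM + 1) 0.73, 0.99 and 0.14, so that *F13b* and *Kng2* missed the fold threshold under both and *Serpinf2* under the second. Without CC027 *Kng2* missed it as well (0.99), and 23 members were then higher in liver than in kidney. The kidney library of CC020 had the lowest proximal tubule sum (12521 CPM, median 27533) together with the lowest *F13b* (46 CPM) and *Serpinf2* (99.7 CPM) of the 47 kidneys, and the part of the tubule cells in these values was not tested. The promoters of *F13b* (chr1:139501457-139501756, plus strand) and *Serpinf2* (chr11:75439452-75439751, minus strand; RefSeq, GRCm38.p6) are shown for these 2 genes read in both liver and kidney, with capitals as above.
F13b: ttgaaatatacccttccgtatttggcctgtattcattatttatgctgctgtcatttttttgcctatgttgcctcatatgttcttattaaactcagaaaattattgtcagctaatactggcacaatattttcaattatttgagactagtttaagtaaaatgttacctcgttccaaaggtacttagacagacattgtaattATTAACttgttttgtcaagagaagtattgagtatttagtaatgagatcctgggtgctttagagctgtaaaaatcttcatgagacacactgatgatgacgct
Serpinf2: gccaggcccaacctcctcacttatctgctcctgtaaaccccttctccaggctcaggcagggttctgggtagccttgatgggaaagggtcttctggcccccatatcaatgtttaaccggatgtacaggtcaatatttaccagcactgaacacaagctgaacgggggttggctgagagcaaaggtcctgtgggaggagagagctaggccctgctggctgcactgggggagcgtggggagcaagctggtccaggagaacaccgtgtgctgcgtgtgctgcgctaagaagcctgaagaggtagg
*F13b* held GTTAAT, and *Serpinf2* held neither motif in this window.

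The remaining inhibitors and regulators from hepatocytes were liver genes. *Serpinc1*, which encodes antithrombin, had 558 to 3127 TPM in liver (median 1986), with medians of 3.88 TPM in lung and 4.59 TPM in kidney. *Serpind1* (heparin cofactor II) and *Serpina10* (the protein Z-dependent inhibitor) had liver medians of 11.8 and 49.7 TPM and medians of 0.39 TPM or less elsewhere. *Proc*, which encodes protein C, had a liver median of 1.79 TPM and was listed at 0 in 45 of 47 lungs, but kidney had a median of 0.75 TPM. *Plg*, the precursor of plasmin, had 475 to 2657 TPM in liver (median 1787), 2.24 TPM at the lung median and 2.47 at the kidney median. *Cpb2*, a carboxypeptidase that protects fibrin from plasmin, and *Hrg*, a histidine-rich plasma protein that binds plasminogen, had liver medians of 382 and 772 TPM. Both were higher in kidney than in lung, by 3.87 ± 0.20 in 43 of 47 mice for *Cpb2* and by 3.65 ± 0.22 in 41 of 47 for *Hrg*, and kidney values of *Hrg* ran from 0.14 to 148 TPM. *Cpb2* had a median of 2 counts in lung, so the size of its difference rests on the small value added before logs.

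Of the endothelial members, the receptors and stored factors were led by lung. *Thbd*, which encodes thrombomodulin, the thrombin receptor that activates protein C, had 138 to 1053 TPM in lung (median 556), 7.87 to 32.1 TPM in kidney (median 16.7) and 0.84 to 6.5 TPM in liver (median 2.41). The lung range stood clear of both others, with log2 differences of -6.31 ± 0.06 for liver against lung and 4.45 ± 0.06 for lung against kidney. *Vwf*, which encodes von Willebrand factor, had 55.7 to 672 TPM in lung (median 275), 0.79 to 5.39 TPM in liver (median 3.20) and 0.82 to 4.31 TPM in kidney (median 1.48). It was lower in liver than in lung by 4.98 ± 0.08, and its excess of liver over kidney, 1.76 ± 0.08, was 0.87 on total counts. *Procr*, the endothelial protein C receptor, had medians of 12.8 TPM in lung, 4.48 in kidney and 1.05 in liver, and lung was higher than liver in 45 of 47 mice by 1.95 ± 0.16. *Tfpi*, the inhibitor of tissue factor, was higher in lung than in kidney by 1.22 ± 0.14, and its difference between liver and lung, -0.97 ± 0.14, missed the fold threshold on TMM and passed it on DESeq2 size factors (-1.20) and total counts (-2.41). The summed CPM of 10 endothelial markers was 651 to 1260 in lung, 126 to 231 in liver and 108 to 178 in kidney, and its part in these differences was not tested. All 10 had a median above 3 counts in lung, but only 3 in liver and 4 in kidney, so few genes carry those sums.

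The other endothelial members did not share the lung profile. *Plat*, which encodes tissue-type plasminogen activator, had medians of 62.5 TPM in lung and 57.1 TPM in kidney and 0.58 TPM in liver. Both tissues exceeded all livers, with log2 differences of -5.28 ± 0.11 and -5.57 ± 0.11 for liver, and lung and kidney did not pass the fold threshold (-0.29 ± 0.09, and 0.12 on total counts). *F8*, the cofactor deficient in haemophilia A and known from sinusoidal endothelium, was the endothelial member with its highest level in liver. It had medians of 0.55 TPM in liver, 0.32 in kidney and 0.09 in lung, with log2 differences for liver of 3.73 ± 0.12 against lung (45 of 47 mice) and 1.77 ± 0.11 against kidney (44 of 47). Its counts were low, with medians of 16 in liver, 6 in kidney and 2 in lung. On total counts the difference from kidney was 0.82, and on log2(TPM + 1) the difference from lung was 0.48. Markers of liver sinusoidal endothelium summed to 297 to 621 CPM in liver, 160 to 803 in lung and 22.1 to 91.0 in kidney.

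Among members from other sources, *Plau* set kidney apart. This gene of urokinase had 89.5 to 1158 TPM in kidney (median 599), 0.98 to 42.1 TPM in lung (median 13.5) and 0.59 to 15.1 TPM in liver (median 2.10). Every kidney lay above every lung and liver, and the log2 difference of lung against kidney was -5.82 ± 0.10. Its receptor gene *Plaur* had the other order, with medians of 62.6 TPM in lung, 4.95 in kidney and 0.62 in liver, and lung was higher than kidney in 47 of 47 mice by 3.17 ± 0.09. *F2r*, which encodes the thrombin receptor PAR1, had 75.6 to 581 TPM in lung (median 281), 14.7 to 149 TPM in kidney (median 39.0) and 6.13 to 60.3 TPM in liver (median 26.3). Lung exceeded kidney by 2.20 ± 0.09, and liver and kidney did not pass the fold threshold (0.28 ± 0.09, -0.65 on total counts). *F3*, the tissue factor gene, had medians of 70.1 TPM in lung, 29.9 in kidney and 6.56 in liver, and liver was lower than lung by 1.75 ± 0.07 and lower than kidney by 1.24 ± 0.07. *F13a1*, the catalytic subunit of factor XIII, known from macrophages and platelets, was listed at 0 in 46 livers, 25 lungs and 46 kidneys, and *Adamts13*, the protease that cuts von Willebrand factor, at 0 in 15 livers, 30 lungs and all 47 kidneys. These genes have 2 and 4 transcripts in the files, and the part of unique alignment in their zeros was not tested.

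**Figure D2:**
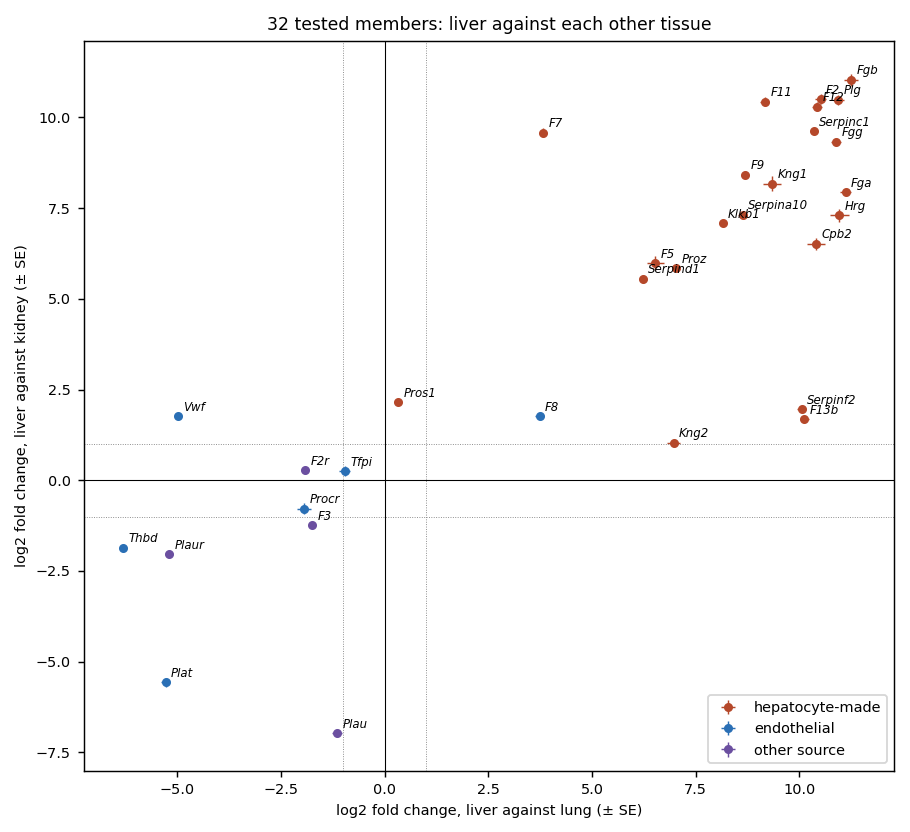
Log2 fold change of liver against lung (x) and of liver against kidney (y) for the 32 tested members, with standard errors over 47 mice and dotted lines at an absolute value of 1; the axes share the liver libraries. *F13b*, *Serpinf2* and *Kng2* lie high on x (10.12, 10.05 and 6.96) and low on y (1.68, 1.95 and 1.04), *F7* shows the reverse (3.82 and 9.58), and *Plau* lies lowest on y (-6.97).

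The pathway was also read in 27 other genes of coagulation and fibrinolysis, of which 18 were tested. Of these, 8 were higher in liver and 8 in lung, 8 were higher in liver and 6 in kidney, and 8 were higher in lung and 0 in kidney, against 23.9% and 31%, 15.6% and 20.8%, and 25.5% and 20.6% of all genes. Their medians were -0.09, 0.50 and 0.46 on the log2 scale. The strongest liver differences were those of *Cpn2* and *Cpn1*, the subunits of the kinin-cleaving carboxypeptidase N, at 9.46 ± 0.12 and 6.77 ± 0.19 against lung and 10.04 ± 0.14 and 6.31 ± 0.20 against kidney. *Serping1*, the inhibitor of C1 and kallikrein, was higher in liver than in kidney by 4.54 ± 0.05. *F2rl1*, which encodes PAR2, was lower in liver than in lung by 4.97 ± 0.11 and lower than in kidney by 5.51 ± 0.11. Lung exceeded kidney for *Bdkrb2* (a bradykinin receptor, 3.27 ± 0.16), *Fgl2* (a fibrinogen-like protein, 2.84 ± 0.12) and *Anxa2* (a cell surface site of plasmin formation, 2.56 ± 0.06), in 47 of 47 mice each.

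Lung and kidney libraries also held low counts of liver transcripts, so each hepatocyte-made member was set against *Alb*, the albumin gene, within the same library and then against the same ratio in the liver of the same mouse. In lung, 10 members had a median of 10 or more counts, and the ratio to *Alb* of 5 of them was within 2-fold of liver: *Fgb* 0.890, *Plg* 1.01, *F2* 1.30, *Serpinc1* 1.62 and *Serpinf2* 1.96 times the liver ratio at the median. The other 5 were above it in 47 of 47 mice, by 6.15-fold for *Klkb1*, 16.0-fold for *Proz*, 20.3-fold for *F5*, 129-fold for *F7* and 1432-fold for *Pros1*. In kidney, 3 of 15 members were within 2-fold (*Fgb* 0.820, *F2* 1.11 and *Plg* 1.18 times). The ratio was 1040-fold above liver for *Kng2*, 620-fold for *F13b*, 506-fold for *Pros1* and 448-fold for *Serpinf2*, and between 15.2-fold and 31.8-fold for *Cpb2*, *Klkb1*, *F5* and *Proz*. With *Apoh* in place of *Alb*, a reference added after seeing the data, the same 4 lung members stood over 8-fold above liver, but in kidney only *Kng2* (81.5-fold), *F13b* (51.4-fold), *Serpinf2* (44.9-fold) and *Pros1* (35.6-fold) did. *Apoh* itself had a median of 145 counts in kidney, and *Fgb*, *F2* and *Plg*, near the liver ratio against *Alb*, stood at 0.108, 0.127 and 0.131 times the liver ratio against *Apoh*.

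**Figure D3:**
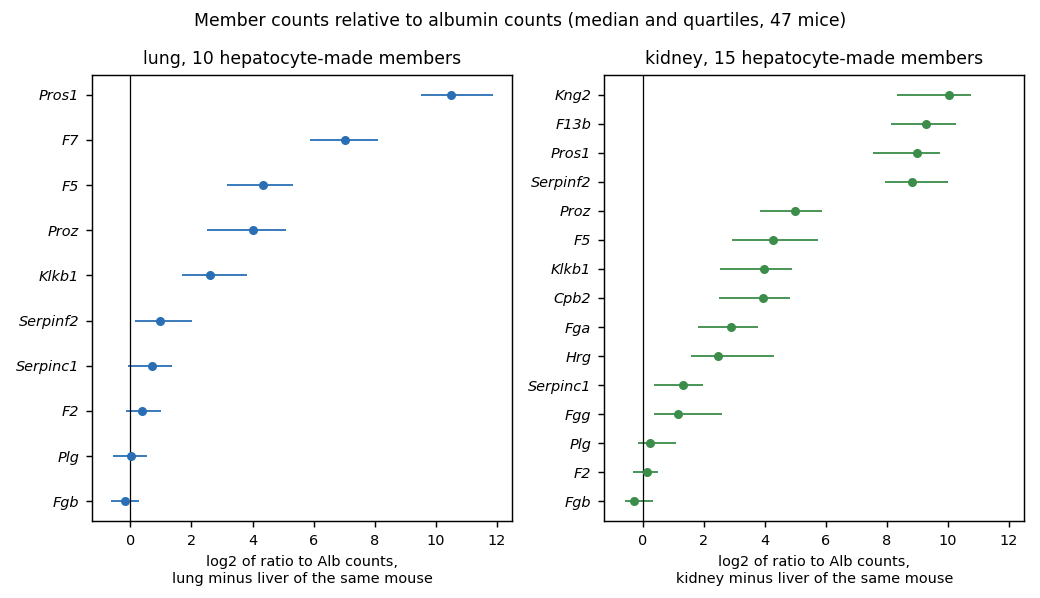
Log2 ratio of member counts to *Alb* counts, each tissue minus the liver of the same mouse, for hepatocyte-made members with a median of 10 or more counts in lung (10) and kidney (15). Points are medians and bars quartiles over 47 mice; *Fgb*, *Plg* and *F2* sit near 0 in both tissues, while *Pros1* (1432-fold) and *F7* (129-fold) stand highest in lung and *Kng2* (1040-fold), *F13b* (620-fold), *Pros1* (506-fold) and *Serpinf2* (448-fold) in kidney.

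The members were also compared with hepatocyte markers across strains. In lung, 6 of 10 hepatocyte-made members correlated with the mean log2 CPM of 8 hepatocyte markers over 47 strains, where 0.267% of 11623 genes reached the lowest of these r. *Fgb* had r = 0.953 (Spearman 0.958, permutation p = 1e-05, the smallest that 100000 permutations can give, q = 9.4e-05 over 94 marker relations, and r = 0.939 without the 2 strains farthest from the marker median). *Plg* (0.950), *Serpinc1* (0.908), *F2* (0.893), *Serpinf2* (0.784) and *Klkb1* (0.686) followed with the same p and q, and *F7*, *F5*, *Proz* and *Pros1* did not pass. In kidney, 6 of 15 passed, where 1.18% of 10081 genes reached the lowest r: *Fgb* 0.893, *Plg* 0.887, *Serpinc1* 0.776, *F2* 0.747, *Fgg* 0.490 and *Proz* 0.354. *F13b*, *Serpinf2*, *Kng2* and *Pros1* did not pass there. More of the 94 marker relations passed on log2(TPM + 1) and on total counts, so passing or not depends on the scaling. The lung libraries of CC010 and CC015 stood apart with 794 and 592 CPM of hepatocyte markers, and 19 of the 94 marker relations passed with CC010 and 19 without it. The kidney library of CC027 stood apart with 1145 CPM, where the next highest kidney had 367 CPM, and it held the most *Fgb* (57.0 CPM), *Plg* (26.3), *Serpinc1* (24.4) and *F2* (18.5) of the 47 kidneys. Without it 19 marker relations passed as well, and the kidney r of *Fgb*, *Plg*, *Serpinc1* and *F2* were 0.874, 0.866, 0.726 and 0.708. The part of liver RNA in the lung and kidney values of *Fgb*, *Plg*, *F2* and *Serpinc1* was not tested beyond these ratios.

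Strain spread differed by tissue. The standard deviation (SD) of log2 CPM over strains exceeded the median of all genes for 17 of 29 measured members in liver, 15 of 19 in lung and 21 of 23 in kidney, with the median of all genes at 0.387, 0.364 and 0.353. In liver the 23 measured hepatocyte-made members had a median SD of 0.384, close to that of all genes, and 11 exceeded it. *F2* was among the steadiest, with an SD of 0.187 (4.41% of genes had a smaller SD) and a range of 1515 to 2600 CPM. *F13b* (0.219), *Proz* (0.225), *Plg* (0.244) and *Serpinc1* (0.250) were also low. In lung and kidney the hepatocyte-made members had median SDs of 0.889 and 0.797, and the most variable were those that tracked hepatocyte markers (*Fgb* 1.7 in lung and 1.67 in kidney) and, in kidney, *Hrg* (1.88), *Cpb2* (1.67) and *F5* (1.67). Several had low counts, such as *F2* with medians of 17 in lung and 13 in kidney. Counting error adds to an SD at such counts, and its part was not tested. *Pros1* was steady in lung, with an SD of 0.189, a range of 60.0 to 107 CPM and 9.41% of genes below it. *Thbd* (0.262) and *F3* (0.277) in lung were below the median as well.

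Some members fell into separate groups of strains, defined after seeing the data as a gap of at least 1 on the log2 scale with 3 or more strains on each side. *Cpb2* in liver had 39.7 to 64.9 CPM in 7 strains (CC017, CC007, CC049, CC027, CC001, CC046 and CC040) and 219 to 528 CPM in the other 40. *F5* in kidney had 1.81 to 28.6 CPM in 40 strains and 89.5 to 205 CPM in 7 (CC036, CC035, CC010, CC023, CC030, CC040 and CC015). Neither set of strains was set apart in the other tissues by this measure. For *F5*, liver ran from 676 to 1411 CPM and lung from 3.99 to 41.2 CPM without such a gap, and for *Cpb2*, kidney ran from 0.0895 to 22.3 CPM. *Kng1* also met the rule, with 1.59 to 18.9 CPM in 7 lungs (others 0 to 0.608) and 5.51 to 22.1 CPM in 8 kidneys (others 0 to 1.69). Its median counts were only 3 in lung and 4 in kidney. Besides strains with the most kidney *Hrg*, its upper groups held CC010 and CC015 in lung and CC023 and CC027 in kidney. *Proc* in liver met it too, with 0 to 0.372 CPM in 5 strains and 1.12 to 4.24 CPM in 42. No correlation over all strains is given for these genes, and within the groups none of the 16 relations between tissues computed for such genes passed (exact permutation tests for groups under 10 strains, lowest q = 0.278).

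On chromosome 16, 3 neighbouring members stood high or low in the same 6 strains in liver and kidney, and CC023 shared the pattern of 2 of them in part. *Hrg* (chr16:22951145-22961729, plus strand), *Kng2* (chr16:22985927-23029174, minus strand) and *Kng1* (chr16:23057938-23082141, plus strand; NCBIM37) lie within 96.2 kb of each other. The 6 strains with the most kidney *Hrg* were CC045 (65.3 CPM), CC042 (62.8), CC053 (59.4), CC057 (39.5), CC043 (38.9) and CC062 (20.0), while the other 41 had 0.0712 to 10 CPM. These strains were named by their *Hrg* in kidney, so the values of the other genes and tissues are given as a description. The same 6 had the lowest *Kng2* of all 47 livers, from 4.54 CPM in CC057 to 18.6 CPM in CC053, against 19.2 to 107 CPM in the others. In kidney all 6 were among the 10 lowest for *Kng2*, at 2.09 to 10.5 CPM. For *Kng1* they went the other way: all 6 were among the 10 highest livers, at 588 to 926 CPM (others 277 to 691), and among the 10 highest kidneys, at 8.93 to 22.1 CPM (others 0 to 10.1). CC023, not among the 6, held the lowest kidney *Kng2* (3.10 CPM) and the highest kidney *Kng1* (10.1 CPM) of the other 41. Its liver *Kng2* was also the lowest of those 41 (19.2 CPM), but its kidney *Hrg* was 4.90 CPM. In lung, CC062, CC045, CC053, CC057 and CC043 had the 5 highest *Kng1* values of 47, from 5.71 to 18.9 CPM, and the 5 highest *Kng2* values, from 1.77 to 5.01 CPM. The lung library labelled CC042, which did not match its strain, had 0.152 CPM of *Kng1* and 0.667 CPM of *Kng2*. Liver *Hrg* of the 6 was also among the 10 highest, at 1016 to 1350 CPM (others 363 to 1201). Lung *Hrg* did not set them apart, at 0.0717 to 1.27 CPM (others 0 to 5.97), with 2 among the 10 highest and 1 among the 10 lowest. The nearby genes *Ahsg* and *Fetub*, of the liver plasma proteins fetuin-A and fetuin-B, did not set the 6 apart. For *Ahsg*, 0 of the 6 were among the 10 highest livers and 2 among the 10 lowest, and 1 was among the 10 highest kidneys. For *Fetub*, 2 were among the 10 highest livers and 2 among the 10 lowest. CC057 alone had 1 count of *Ahsg* in liver (0.197 CPM), where the 41 other strains had 339 to 875 CPM, and it also held the lowest liver *Fetub* (1.58 CPM) and *Kng2* of the 47. The liver TPM of *Kng1* over *Kng2* therefore spanned 2.88 to 131 with a median of 10.1, and the shared windows of this gene pair limit how far their reads can be told apart.

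The promoters of *Hrg* (chr16:22950822-22951121, plus strand) and *Kng2* (chr16:23029052-23029351, minus strand; RefSeq, GRCm38.p6) are shown for this set of neighbours, with capitals as above.
Hrg: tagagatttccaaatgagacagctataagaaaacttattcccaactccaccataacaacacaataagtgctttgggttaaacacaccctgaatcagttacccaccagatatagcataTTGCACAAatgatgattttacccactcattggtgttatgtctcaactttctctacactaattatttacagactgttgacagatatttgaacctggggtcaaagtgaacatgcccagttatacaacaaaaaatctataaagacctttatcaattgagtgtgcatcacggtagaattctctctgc
Kng2: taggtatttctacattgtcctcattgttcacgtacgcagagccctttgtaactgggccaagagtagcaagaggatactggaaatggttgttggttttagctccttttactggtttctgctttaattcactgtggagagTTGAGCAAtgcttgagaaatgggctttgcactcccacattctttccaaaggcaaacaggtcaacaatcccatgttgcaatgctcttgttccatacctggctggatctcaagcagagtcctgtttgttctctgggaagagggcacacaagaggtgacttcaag
Each held TTGCNNAA on 1 strand and no GTTAAT. These are reference letters, and the sequence of the 6 strains was not analysed here.

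**Figure D4:**
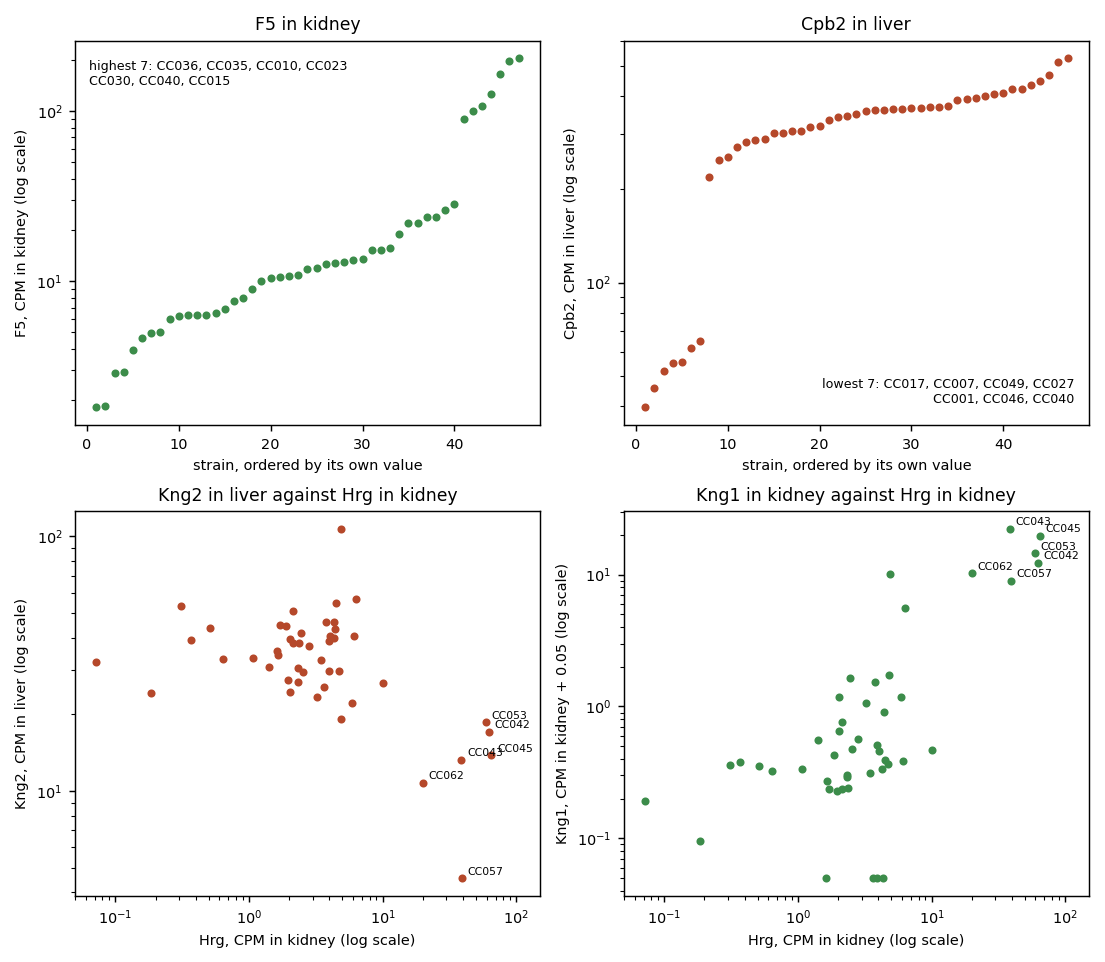
Upper panels show *F5* in kidney and *Cpb2* in liver (CPM, log axis) for 47 strains in order of their own value, with 7 strains set apart in each. Lower panels show *Kng2* in liver and *Kng1* in kidney against *Hrg* in kidney (CPM, log axes), where the 6 named strains hold 20.0 to 65.3 CPM of *Hrg*, 4.54 to 18.6 CPM of *Kng2* and 8.93 to 22.1 CPM of *Kng1*.

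Within liver, hepatocyte-made members that varied together were led by the fibrinogen chains. Of 253 pairs, 35 passed (q ≤ 0.1), all with positive r, of which 2 involved *Proc*, whose strains fell into separate groups and for which no r is given, and 3.47% of all pairs of liver genes reached the lowest of these r (0.357). *Fgb* and *Fgg* had r = 0.918 (Spearman 0.851, permutation p = 1e-05, q = 0.000506, and 0.879 once the 2 strains most distant from the median *Fgb* were left out). *Fga* followed *Fgb* with r = 0.810 and *Fgg* with r = 0.792 at the same p. The TPM of *Fgb* over *Fgg* stayed between 6.75 and 10.8 in all livers (median 7.73), while *Fgb* itself ran from 4092 to 15991 CPM. A ratio within a library cancels any scale that its genes share, so its steadiness is given as a description only. Outside fibrinogen, *F2* and *Serpinc1* had r = 0.758, *F2* and *Serpinf2* 0.623, *Fgb* and *Serpina10* 0.591, *Serpinc1* and *Serpinf2* 0.572, *Fga* and *Serpinf2* 0.569 and *Fga* and *Serpina10* 0.564. *F11* and *Klkb1*, 7.4 kb apart on chromosome 8, had r = 0.545 (q = 0.0019), a pair singled out after its values were seen. Without the 2 farthest strains *Fgb* and *Serpina10* had r = 0.323. On total counts all 253 pairs passed and on log2(TPM + 1) 244 did, so the number of pairs depends on the scaling, and r of *Fgb* and *Fgg* was 0.983 and 0.966 under them.

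The livers of CC004 and CC020 held the most *Fgb* (15991 and 11770 CPM), *Fgg* (1740 and 1489 CPM) and *Fga* (1007 and 1129 CPM). Acute phase markers, liver genes induced in inflammation, summed to 18020 CPM in CC004 and 5067 CPM in CC020, against a median of 3058 CPM, and CC016 lay between them with 7852 CPM. Over 47 livers, 5 of 23 measured hepatocyte-made members correlated with the mean of these markers, where 1.46% of 8816 genes reached the lowest r. They were *Serpina10* (r = 0.594, q = 0.000862), *Fgb* (0.578), *Fgg* (0.536), *Fga* (0.431) and *Pros1* (0.428). Without the 2 strains farthest from the marker median these r were 0.388, 0.419, 0.468, 0.414 and 0.294, so the strength for *Serpina10*, *Fgb* and *Pros1* rests in part on those strains. Among endothelial and other members, 2 of 46 marker relations passed: *Thbd* with endothelial markers in lung (r = 0.489, Spearman 0.510, q = 0.00316) and *Vwf* with macrophage markers in kidney (r = 0.433, q = 0.0118). These were 1 of 9 and 1 of 8 members, beside 1.57% of 11622 genes and 2.11% of 10082 genes that reached the same r, and the other 4 sets of endothelial and macrophage relations held 0 calls. Most endothelial markers had a median of 3 counts or fewer in liver and kidney, so the absence of calls there says little. The liver library of CC016 held the highest macrophage marker sum, 977 CPM beside a median of 341, and the highest liver *Vwf* (27.3 CPM), *Procr* (17.3), *Plaur* (6.82), *Tfpi* (3.93) and *Plat* (3.15), and the part of the marker cells in these values was not tested.

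**Figure D5:**
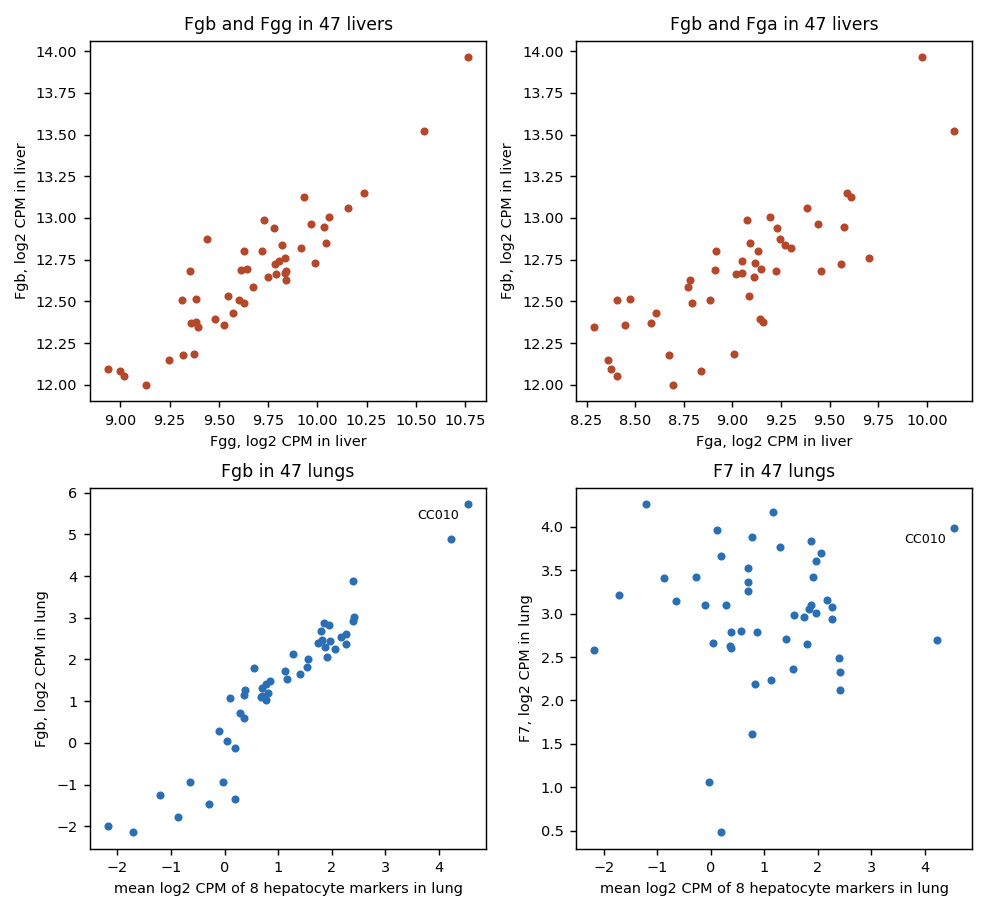
Upper panels show log2 CPM of *Fgb* against *Fgg* (r = 0.918) and *Fga* (r = 0.810) in 47 livers. Lower panels show log2 CPM of *Fgb* (r = 0.953) and *F7* in 47 lungs against the mean log2 CPM of 8 hepatocyte markers; *Fgb* follows the markers and *F7* shows no such trend.

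The order of strains was also compared between tissues. Of 52 relations, 8 passed, all positive: 1 of 15 for liver and lung (6.67%), 4 of 20 for liver and kidney (20%) and 3 of 17 for lung and kidney (17.6%). Over all genes 6.23%, 14.9% and 17.5% reached the lowest called r, so the number of members that passed was near that of genes in general and is not read as a result about the members. *Kng2* in liver and kidney had r = 0.726 (Spearman 0.486, permutation p = 1e-05, q = 0.00026) and r = 0.615 without the 2 strains farthest from the liver median. The 6 strains with the most kidney *Hrg* were the lowest for *Kng2* in liver and among the 10 lowest in kidney, and their part in this r was not tested. *Procr* in lung and kidney had r = 0.721 (Spearman 0.688, q = 0.00026). It ran from 0.968 to 13.8 CPM in lung and from 0.158 to 4.08 CPM in kidney, and CC023, CC045, CC031, CC015 and CC036 were the 5 lowest strains in both. *F7* in liver and lung had r = 0.488 (Spearman 0.553, q = 0.00585), and *F13b* in liver and kidney r = 0.428 (q = 0.0233). *Fgg* and *Fga* in liver and kidney had r = 0.513 and 0.452, which went to 0.375 and 0.311 when the 2 strains most distant from the liver median were dropped. *Fga* no longer passed without CC020 (r = 0.340), the strain with the most *Fga* in both tissues. *Plaur* (0.416) and *F2r* (0.362) passed for lung and kidney, but *Plaur* not on total counts (0.330) and *F2r* not on DESeq2 size factors (0.335). The median r of the members outside separate groups was 0.03, 0.14 and 0.07, beside 0.14, 0.19 and 0.16 over all genes.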

How the data were processed

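RNA-seq libraries of whole liver, lung and kidney from 47 CC strains (141 files) were analysed. Per the labels and the study's methods, the authors sequenced ribosome-depleted total RNA as single ends, aligned reads with STAR 2.5.3a to strain-specific versions of the mm9 genome, and used RSEM to deposit an expected count, TPM and FPKM per gene, keeping uniquely aligned reads; FPKM and the effective length were deposited but not used here. Of the deposited expected counts 25 were not whole, and all were rounded. Groups follow the tissue and strain given in the labels, which name no batch, so no batch term could be fitted.

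Genes above 1 CPM in at least 30% of libraries (12127) were scaled by TMM (edgeR 4.0.16) and fitted with tissue and strain as terms by voom in limma 3.58.1 (limma-voom, run in R 4.3.3); p-values were adjusted by Benjamini-Hochberg over all tested genes. Strain pairs the tissues because the 3 libraries come from the same mouse: the median correlation of deviations was 0.247 to 0.260 within a mouse and -0.0055 to -0.0091 between mice. Strain correlations used log2 CPM of genes with a median of at least 10 counts and 100000 two-sided permutations (scipy 1.17.1 and numpy 2.4.6 under Python 3.11.15, with pandas 2.3.3 for tables and matplotlib 3.10.9 for figures). On counts simulated for liver against lung (12623 genes), 100 of 100 genes changed 4-fold and 100 of 100 changed 8-fold were recovered with 0 false calls. The simulated libraries shared a single mean profile without strain effects, and changes were balanced in direction and left out weakly expressed genes. It therefore cannot show how the fit handles the scaling between tissues or low counts.

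All 36 members are named; other pathway genes were named as up to 4 per comparison with the largest called fold change, and correlations as the fibrinogen pairs and up to 6 per family with the largest r. A pathway gene that this rule also names is not reported here. The members and lists were chosen with earlier results of these data known. Promoters were taken from RefSeq (GRCm38.p6) and gene positions from GENCODE on NCBIM37. Alternatives covered the threshold, scaling by DESeq2 1.42.0 size factors or total counts, edgeR and DESeq2 tests, the low-count filter, the strain block, log2(TPM + 1) and log2(TPM + 0.1), a median count of 30, and libraries left out. Those without CC010, CC027, CC004 or CC020, the *Apoh* reference, the motifs and the rule for separate groups were chosen after seeing the data.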

Additional observations from a re-analysis of the deposited data

How the results depend on the processing

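The part of batch was not tested, because no label gives one, and each strain is 1 mouse. Depth limits the members with a median of 3 counts or fewer in a tissue, whose fold changes rest on the small value added before logs. Of the fold changes recomputed under an alternative, 1200 kept their direction and their side of the threshold, 44 no longer passed it, 13 newly passed it and 32 changed sign, and the cause was not tested. Of the counts, 149 stayed within 1.5 times the reported one and 14 did not. Members higher in kidney than in lung were 13, and 7 on log2(TPM + 1) and 8 on log2(TPM + 0.1). Members correlated between liver and lung were 1, and 2 by Spearman's rho or without CC004. Those between liver and kidney were 4, and 2 on total counts, 2 with a median count of at least 30 and 7 without CC004. Those between lung and kidney were 3, and 1 on total counts and 0 with a median count of at least 30. Pairs in liver were 35, and 244 on log2(TPM + 1) and 253 on total counts. Marker relations were 19, and 64 and 78 under those settings in the same order, and 12 with a median count of at least 30. Signs changed on total counts, log2(TPM + 1) and log2(TPM + 0.1) for *Pros1* between liver and lung (-1.05, -1.15 and -1.16), for *Tfpi* (-0.75, -0.50 and -0.79) and *F2r* (-0.65, -0.65 and -0.68) between liver and kidney, and between lung and kidney for *F2* (0.39, 0.28 and 0.50), *F5* (0.10, 0.12 and 0.22), *F9* (0.17, 0.028 and 0.17), *F12* (0.21, 0.12 and 0.28), *Fgb* (0.19, 0.20 and 0.25) and *Plat* (0.12, 0.20 and 0.21). *F2* also changed sign on DESeq2 size factors (0.12), *F12* on the same (0.0071) and *F9* with edgeR (0.35) and DESeq2 (0.12). With no replicate block, so without strain as a term, *F2* between lung and kidney was 0.12, members higher in lung than in liver were 9 against 8 as *Tfpi* passed (-1.06), members higher in kidney than in lung were 12 against 13 as *Kng1* did not (-0.97), and the block changed no other call.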
